A study of Mus musculus with 10 samples.

Results

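The gasdermins are the pore-forming proteins that carry out pyroptosis, a lytic and inflammatory form of cell death. The 7 genes described here are Gsdma, Gsdmc, Gsdmc2, Gsdmc3, Gsdmc4, Gsdmd and Gsdme, taken by gene name from an annotated table of 32132 genes measured by RNA sequencing of mouse colon. A gasdermin is made as a protein of an inhibitory and a pore-forming domain, in which the carboxy-terminal domain holds the amino-terminal domain inactive. A protease cuts the linker between the domains, and the freed amino-terminal fragments assemble into pores in the plasma membrane, through which interleukin-1 family cytokines leave the cell and water enters it. Gsdmd is the substrate of the inflammatory caspases and Gsdme is cut during apoptosis, whereas the Gsdmc genes are known for their expression in the intestinal epithelium and Gsdma for its expression in skin.

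All mice were wild-type adult C57BL/6 animals that drank 3% dextran sulfate sodium (DSS), a chemical that injures the colonic epithelium, for 7 days. During those 7 days, 5 libraries came from mice injected every day into a vein with 4-HDHA, a hydroxylated derivative of the omega-3 fatty acid docosahexaenoic acid, and 5 from mice injected with PBS, the buffer in which it was diluted. Both were given at 200 ul per 20 g of body weight, and the labels write the 4-HDHA strength as 5 um. Mice without DSS were not analysed here, so the levels below are those of the injured colon, and the question is whether 4-HDHA changed them.

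The libraries held 50915365 to 66470519 gene counts. The labels do not state that each library is a separate animal, so the p-values measure the spread between libraries, whatever its source. Epithelial marker genes were expressed in every library: the 15 genes of an epithelial list (Epcam, Cdh1, Krt8, Cdx1, Vil1 and others) summed to 14255 to 20334 CPM, counts scaled to library size, in the 4-HDHA libraries and 12519 to 20403 CPM in the PBS libraries. Muscle markers varied widely between libraries: the 15 smooth muscle genes (Acta2, Myh11, Des and others) summed to 1770 to 9747 CPM with 4-HDHA and 1304 to 6171 CPM with PBS. Their fold change was above 0 for all 15, against 51% of all genes tested. Other lists leaned too. Fold changes were above 0 for 12 of 12 fibroblast genes, 15 of 17 interferon response genes and 3 of 15 crypt stem and cycling genes. In whole tissue, fewer cells of a type and less RNA per cell cannot be told apart. Across 19615 genes tested with edgeR's quasi-likelihood test, 0 passed a Benjamini-Hochberg adjusted p of 0.05, the smallest adjusted p being 0.283, while 2911 had an unadjusted p under 0.05 and DESeq2 called 312 of 18268.

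The gasdermins lie at 4 places in the mouse genome (build mm10). Gsdma is at chr11:98664351-98677708 on the forward strand. Gsdmd is at chr15:75862327-75867408, also forward, and Gsdme is at chr6:50188888-50263862 on the reverse strand. The 4 Gsdmc genes stand side by side on the reverse strand of chromosome 15, with Gsdmc at chr15:63775968-63808759, Gsdmc2 at chr15:63824346-63845177, Gsdmc3 at chr15:63857724-63878558 and Gsdmc4 at chr15:63891264-63912297. Gsdmcl2, a non-coding member of the same cluster annotated as a processed transcript, lies between Gsdmc3 and Gsdmc4 at chr15:63880707-63890512 on the opposite strand.

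The Gsdmc genes are near copies, which bears on every value given for them. In an alignment of coding sequences from the GENCODE M21 annotation (build GRCm38), Gsdmc2 and Gsdmc3 were identical at 97.1% of bases and differed at 42 of 1443. Gsdmc4 was 93.5% identical to each of them, and Gsdmc was 86.1% to 86.4% identical to the other 3. Every other pair in the family was 38.8% to 51.0% identical. The following 60 bases of coding sequence, in 1 exon of each gene, are the stretch in which Gsdmc3 and Gsdmc4 differ most, and show the kind of position by which a read can be given to 1 paralog. Sequences run 5′ to 3′ in the direction of transcription, and capitals mark the 16 positions at which the 4 genes are not all alike.
Gsdmc: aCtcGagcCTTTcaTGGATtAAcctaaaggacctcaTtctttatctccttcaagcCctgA
Gsdmc2: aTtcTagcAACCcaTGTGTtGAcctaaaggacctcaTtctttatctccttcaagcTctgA
Gsdmc3: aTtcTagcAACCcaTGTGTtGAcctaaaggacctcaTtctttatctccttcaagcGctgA
Gsdmc4: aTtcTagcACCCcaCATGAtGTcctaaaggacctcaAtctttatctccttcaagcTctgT

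These lines come from chr15:63777951-63778010, chr15:63826168-63826227, chr15:63859595-63859654 and chr15:63893121-63893180, in the order printed. Gsdmc3 and Gsdmc4 differ at 8 of the 60 bases. Gsdmc2 and Gsdmc3 carry the same capitals except near the end, where Gsdmc2 has T and Gsdmc3 has G, so this stretch barely separates them. The next line, from chr15:63858435-63858494 in Gsdmc3, shows the opposite case: it has no capitals because Gsdmc, Gsdmc2 and Gsdmc4 hold the same 60 bases. These bases alone cannot tell the 4 genes apart. A full-length read end is longer than this stretch, so it also covers bases outside it.
Gsdmc3: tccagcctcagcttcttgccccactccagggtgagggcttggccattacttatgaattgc

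Distinct windows of 150 bases, the length of 1 sequenced read end, were taken over all annotated transcripts of each gene. Of those in Gsdmc3, 18.0% occurred letter for letter in another of the 4 genes or in Gsdmcl2. The share was 14.9% for Gsdmc2, 8.83% for Gsdmc4 and 2.95% for Gsdmc. How reads from such windows were counted is not given in the sources used here, so the split of counts between Gsdmc2, Gsdmc3 and Gsdmc4 is uncertain, and the sum over the 4 genes is reported beside the single genes.

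The colon expressed 4 gasdermins strongly and 3 weakly. Levels are given as FPKM, fragment counts scaled to transcript length and library size. A comparison between genes in FPKM therefore depends on the length used for each gene. Gsdmc4, a pore-forming paralog of the intestinal cluster, was the 80th most abundant of the 32132 genes by mean FPKM. Gsdmd, the effector of the inflammasome pathway, was 243rd, Gsdmc2 was 265th and Gsdmc3 was 475th. Gsdmc, Gsdma and Gsdme stood at ranks 9036, 11422 and 15421. The 4 genes of the cluster together took between 0.0408% and 0.327% of all gene counts of a library.

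Gsdmc4 had 454, 335, 303, 241 and 305 FPKM in the 4-HDHA libraries, against 505, 876, 110 (109.9), 471 and 389 FPKM in the PBS libraries. PBS replicate 2 was the highest of the 10 and PBS replicate 3 the lowest, so the PBS libraries spanned the whole 4-HDHA group. The mean was 328 ± 78.4 FPKM with 4-HDHA and 470 ± 275 FPKM with PBS (SD, n = 5 each). The log2 fold change was -0.52 (SE 0.43, 95% interval -1.46 to 0.43, edgeR adjusted p = 0.552). Without PBS replicate 2 it was -0.22 with an unadjusted p of 0.610, and without PBS replicate 3 it was -0.78 with an unadjusted p of 0.0104 and an adjusted p of 0.419.

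Gsdmc2 had 182, 166, 175, 80.0 and 119 FPKM in the 4-HDHA libraries, against 166, 310 (309.5), 45.4, 142 and 118 FPKM in the PBS libraries. PBS replicates 2 and 3 were again the highest and the lowest, and the groups overlapped throughout. Its means were 144 ± 43.5 FPKM with 4-HDHA and 156 ± 96.9 FPKM with PBS (SD, n = 5 each), and its log2 fold change was -0.11 (SE 0.42, 95% interval -1.04 to 0.81, edgeR adjusted p = 0.914). The sign of this estimate turned under 6 of 14 other settings and in 2 fits that leave out 1 library, to 0.24 without PBS replicate 2.

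Gsdmc3, the near twin of Gsdmc2, had 118, 121, 137, 44.3 and 62.7 FPKM in the 4-HDHA libraries. In the PBS libraries it had 92.9, 161, 13.4, 74.9 and 60.7 FPKM. The groups overlapped, with 4-HDHA replicates 4 and 5 below the middle PBS library and PBS replicate 2 above every 4-HDHA library. Means were 96.6 ± 40.6 FPKM with 4-HDHA and 80.7 ± 53.9 FPKM with PBS (SD, n = 5 each), and the log2 fold change was 0.25 (SE 0.53, 95% interval -0.91 to 1.41, edgeR adjusted p = 0.835). The estimate was 0.60 without PBS replicate 2 and -0.030 without PBS replicate 3. It was 0.89 with the epithelial list as a covariate and -0.14 with the smooth muscle list.

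Gsdmc, the weakly expressed gene at the far end of the cluster, had 3.41, 2.31, 2.32, 1.83 and 2.22 FPKM in the 4-HDHA libraries. It had 3.87, 6.39, 0.929, 3.47 and 2.97 FPKM in the PBS libraries. As in Gsdmc4, 4 of the 5 PBS libraries stood above 4 of the 5 4-HDHA libraries, and PBS replicate 3 lay below them all. The log2 fold change was -0.54 (SE 0.41, 95% interval -1.45 to 0.37, edgeR adjusted p = 0.516). Without PBS replicate 2 it was -0.27 with an unadjusted p of 0.528, and without PBS replicate 3 it was -0.79 with an unadjusted p of 0.0102 and an adjusted p of 0.419. With the epithelial marker list as a covariate it was -0.012. The part of reads from the more abundant paralogs in the Gsdmc counts was not tested.

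Added over the 4 genes, the cluster had 757, 624, 618, 368 and 489 FPKM in the 4-HDHA libraries, against 767, 1353, 170 (169.6), 691 and 571 FPKM in the PBS libraries. The highest PBS library held 7.98 times as much as the lowest, and the highest 4-HDHA library 2.06 times as much as the lowest. The summed counts gave a log2 fold change of -0.30 (SE 0.43, 95% interval -1.26 to 0.66, edgeR adjusted p = 0.745). The interval holds 0 and changes of more than 0.5 on the log2 scale in each direction. Without PBS replicate 2 the estimate was 0.02 and without PBS replicate 3 it was -0.56.

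**Figure D1:**
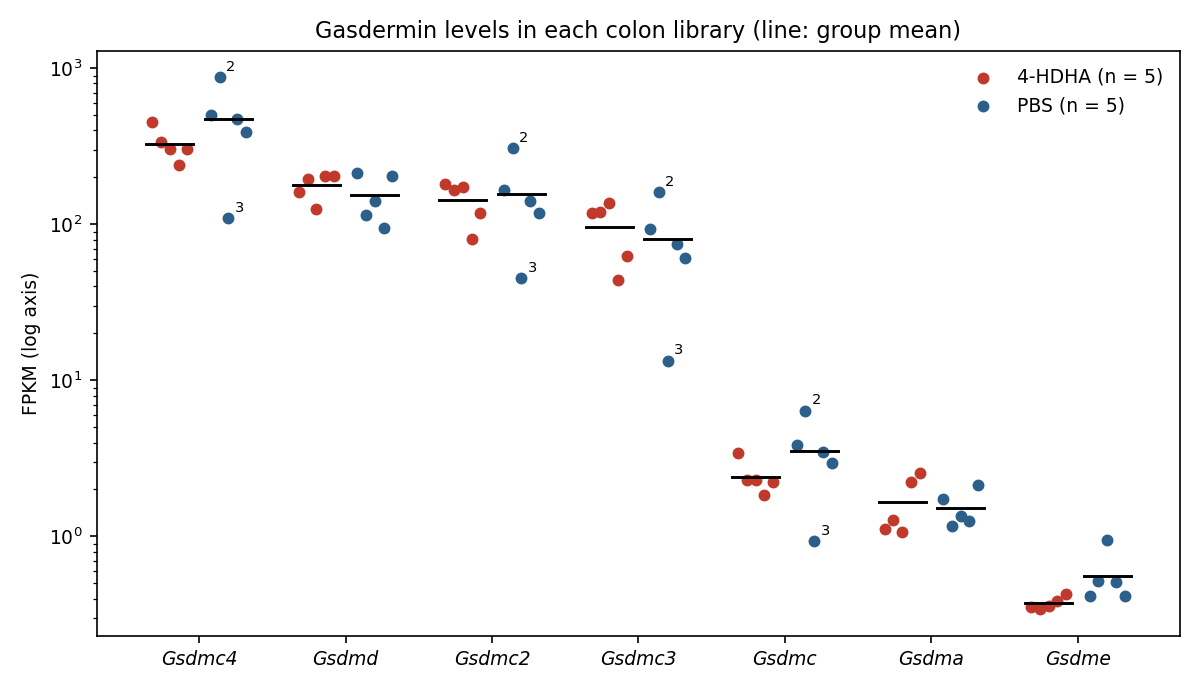
FPKM of each gasdermin in every library on a log axis, with 4-HDHA to the left of PBS for each gene and a line at each group mean. For Gsdmc, Gsdmc2, Gsdmc3 and Gsdmc4 the numbers 2 and 3 mark the PBS replicates that were the highest and the lowest PBS library. Gsdmc4 averaged 328 FPKM with 4-HDHA and 470 FPKM with PBS, and Gsdme 0.374 FPKM with 4-HDHA and 0.561 FPKM with PBS.

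Gsdmd had 161, 196, 125, 203 and 204 FPKM in the 4-HDHA libraries, against 213, 115, 141, 94.8 and 206 FPKM in the PBS libraries. The values fell inside a common range, with PBS libraries at both its ends. Means were 178 ± 34.4 FPKM with 4-HDHA and 154 ± 53.1 FPKM with PBS (SD, n = 5 each), and the log2 fold change was 0.19 (SE 0.28, 95% interval -0.44 to 0.82, edgeR adjusted p = 0.752). PBS replicate 3, the lowest library for all 4 Gsdmc genes, was in the middle of its group for Gsdmd. It was also the library in which Gsdmd and not Gsdmc4 was the most abundant gasdermin, and the other 9 libraries had Gsdmc4 on top.

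Gsdma had 1.12, 1.27, 1.06, 2.25 and 2.56 FPKM in the 4-HDHA libraries, against 1.74, 1.16, 1.35, 1.26 and 2.15 FPKM in the PBS libraries. In each group some libraries lay near 1 FPKM and others near 2, with no separation of the groups. The log2 fold change was 0.10 (SE 0.34, 95% interval -0.64 to 0.84, edgeR adjusted p = 0.903), from 176 to 529 counts per library. Gsdma3, a neighbour of Gsdma on chromosome 11, had between 0 and 18 counts per library and was too low to test.

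Gsdme had the lowest mean FPKM of the 7 members and was the only member whose libraries did not overlap between the groups in CPM, a property that 2.79% of the 19615 genes tested shared and that 1.63% had in the same direction, lower with 4-HDHA. It had 5.35, 5.05, 4.69, 5.54 and 6.42 CPM in the 4-HDHA libraries, against 6.49, 7.00, 12.1, 7.21 and 6.57 CPM in the PBS libraries. All 4-HDHA libraries were below all PBS libraries, but 4-HDHA replicate 5 and PBS replicate 1 almost met, and in FPKM the groups overlapped by these libraries, at 0.426 FPKM in the 4-HDHA library and 0.415 FPKM in the PBS library. The mean was 5.41 ± 0.648 CPM with 4-HDHA and 7.88 ± 2.40 CPM with PBS (SD, n = 5 each), from 262 to 783 counts per library. The log2 fold change was -0.54 (SE 0.21, 95% interval -1.01 to -0.08), with an unadjusted p of 0.0259 and an edgeR adjusted p of 0.311.

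PBS replicate 3, at 12.1 CPM, stood apart from the other PBS libraries, and without it the Gsdme estimate was -0.33 with an unadjusted p of 0.0602. With the smooth muscle list as a covariate the estimate was -0.31 with an unadjusted p of 0.169. The Gsdme gene span shares 10052 bases with Mpp6, which is transcribed on the other strand, although their annotated exons share 0 bases. Mpp6 had a log2 fold change of -0.90 (SE 0.29, unadjusted p = 0.00921, edgeR adjusted p = 0.303) and 249% to 575% of the counts of Gsdme. The library kit kept strand, but whether counting used it is not given in the sources used here, and the part of Mpp6 reads in the Gsdme count was not tested.

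Over the family, 0 of 7 members passed the adjusted threshold in edgeR, against 0% of all genes tested, and 0 of 7 passed in DESeq2, against 1.71%. Only Gsdme had an unadjusted p under 0.05, against 14.8% of all genes tested, 7.39% higher and 7.45% lower, so that the members' share was close to that background. The fold change was above 0 for Gsdma, Gsdmc3 and Gsdmd and below 0 for the other 4 members, with a median log2 fold change of -0.11 beside 0.01 over all genes tested.

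**Figure D2:**
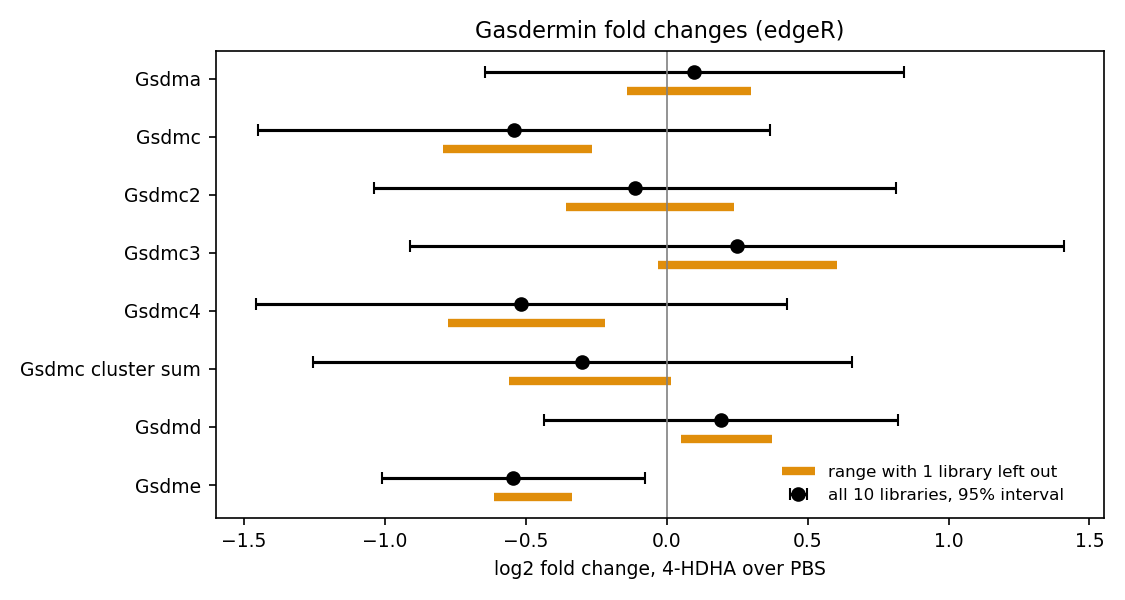
Log2 fold change of each gasdermin, 4-HDHA over PBS, from edgeR, with its 95% interval in black over all 10 libraries and, in orange, the range of estimates when each library in turn was left out. The interval of Gsdme, -1.01 to -0.08, lies below 0, and those of the other 6 genes and of the cluster sum hold 0.

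By mean FPKM the members ran from Gsdmc4 through Gsdmd, Gsdmc2, Gsdmc3, Gsdmc and Gsdma to Gsdme. Gsdmc4 was above Gsdmd in 9 of 10 libraries. Gsdmd and Gsdmc2 were not separated, with Gsdmd higher in 6 of 10. Gsdmc2 was above Gsdmc3 in all 10, and Gsdmc3 was above Gsdmc in all 10 by a gap that no library bridged, its lowest value being 13.4 FPKM and the highest of Gsdmc 6.39 FPKM. Gsdmc was above Gsdma in 7 of 10 libraries and Gsdma above Gsdme in all 10. The place of Gsdme depends on the length used to scale it, and its annotated exons cover 12742 bases. In CPM, which is not scaled to length, Gsdme averaged 5.41 with 4-HDHA and 7.88 with PBS, against 5.10 and 4.77 for Gsdma.

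The make-up of the Gsdmc cluster was compared as each gene's share within a library. Low cluster totals went with low Gsdmc3 shares: the lowest total of the PBS group (replicate 3) had its lowest Gsdmc3 share, and the 4-HDHA libraries with the lowest totals (replicates 4 and 5) had the lowest shares of their group. The highest totals, in PBS replicate 2 and 4-HDHA replicate 1, did not have the highest shares of their groups. A relation of share to total was not tested. Gsdmc3 made up 15.6%, 19.4%, 22.3%, 12.1% and 12.8% of the summed cluster FPKM in the 4-HDHA libraries, against 12.1%, 11.9%, 7.89%, 10.8% and 10.6% in the PBS libraries. The 4-HDHA libraries were higher apart from replicate 4, which was level with PBS replicate 1. The mean share was 16.4% ± 4.34 with 4-HDHA and 10.7% ± 1.69 with PBS (SD, n = 5 each), a difference of 5.73 percentage points with an exact two-sided permutation p of 0.0159.

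Gsdmc4 made up 60.0%, 53.7%, 49.1%, 65.7% and 62.4% of the cluster in the 4-HDHA libraries, against 65.8%, 64.7%, 64.8%, 68.2% and 68.2% in the PBS libraries. The PBS shares lay close together and only 4-HDHA replicate 4 reached them. The means were 58.2% ± 6.71 with 4-HDHA and 66.3% ± 1.74 with PBS (SD, n = 5 each), a difference of -8.17 percentage points with an exact permutation p of 0.0238. Gsdmc made up 0.430% ± 0.0556 with 4-HDHA and 0.509% ± 0.0276 with PBS, a difference of -0.0795 points with an exact permutation p of 0.0159. Gsdmc2 made up 25.0% ± 2.50 with 4-HDHA and 22.5% ± 2.59 with PBS, a difference of 2.52 points with an exact permutation p of 0.167.

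The 4 shares add to 100%, so they are not independent, and the p-values above are unadjusted. Adjusted over the 4 shares by Benjamini-Hochberg, the exact permutation p was 0.0317 for Gsdmc, Gsdmc3 and Gsdmc4 and 0.167 for Gsdmc2. Shares computed from counts differed by 5.98 points for Gsdmc3 and -8.33 points for Gsdmc4 with the same exact permutation p-values as the FPKM shares. Unadjusted, the Gsdmc3 difference lost its place under 0.05 without PBS replicate 3, at 5.03 points with an exact permutation p of 0.0556. The Gsdmc4 difference lost it without PBS replicate 1, 4 or 5. After adjustment no share stayed under 0.05 once any 1 PBS library was left out. The lowest adjusted exact permutation p was then 0.0556, without PBS replicate 3. For Gsdmc it was 0.0529 without 4-HDHA replicate 2 or 3. Since 6.24% of 150-base windows of Gsdmc3 also occur in Gsdmc4 and 13.7% in Gsdmc2, the part of read assignment in these shares was not tested.

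**Figure D3:**
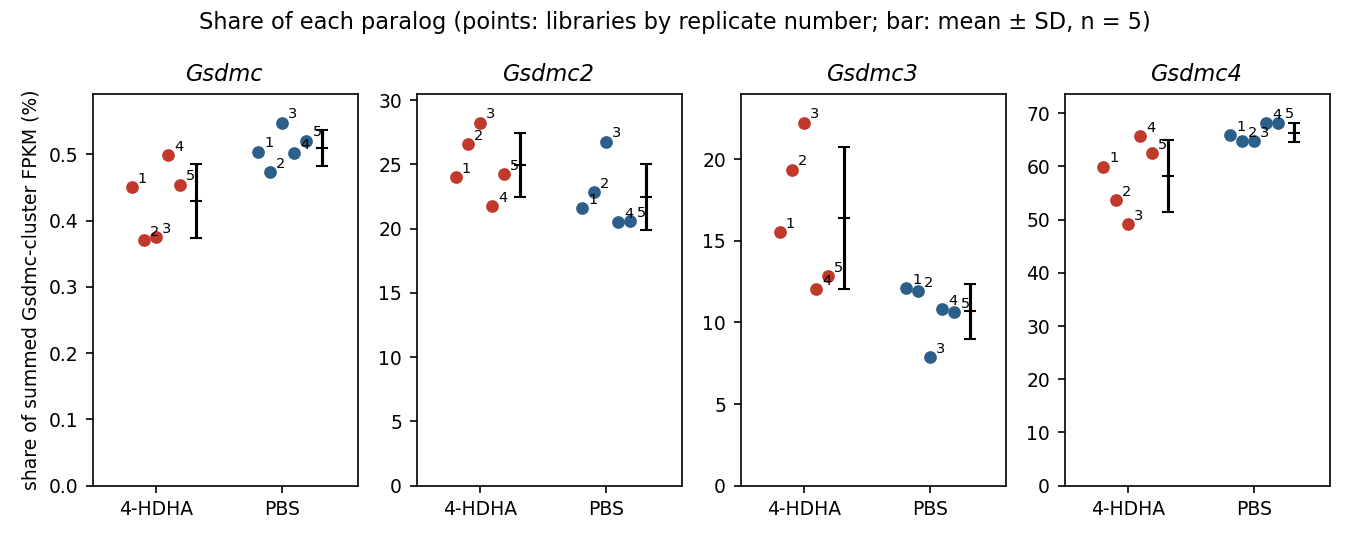
Share of the summed FPKM of Gsdmc, Gsdmc2, Gsdmc3 and Gsdmc4 taken by each of them, in percent, with 4-HDHA libraries left of PBS libraries, each point numbered by replicate and the bar showing the mean ± SD (n = 5). Gsdmc3 averaged 16.4% with 4-HDHA and 10.7% with PBS, and Gsdmc4 58.2% with 4-HDHA and 66.3% with PBS.

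Across the 10 libraries, 53 pairs of members, or of a member and a tissue marker list, were correlated on log2 CPM, and p-values from 100000 permutations were adjusted over these 53. Gsdmc and Gsdmc4 ran together almost point for point, with Pearson r = 0.997 (permutation p = 1e-05, the smallest that 100000 permutations give, adjusted 0.00053) and Spearman rho = 1.00 (adjusted permutation p = 0.00053). Without the farthest libraries, PBS replicates 2 and 3, r was 0.993. Gsdmc2 and Gsdmc3 formed the other close pair, with r = 0.967 (adjusted permutation p = 0.00159), rho = 0.915 (adjusted permutation p = 0.0140) and r = 0.859 without PBS replicate 3 and 4-HDHA replicate 4. Between these pairs r was lower. It was 0.930 for Gsdmc2 and Gsdmc4 and 0.915 for Gsdmc and Gsdmc2 (adjusted permutation p = 0.00543 each). Both had rho = 0.855 (adjusted permutation p = 0.0425). Without PBS replicates 2 and 3 these r were 0.661 and 0.627. Gsdmc and Gsdmc3 had r = 0.823 (adjusted permutation p = 0.0414). Gsdmc3 and Gsdmc4 had r = 0.848 (adjusted permutation p = 0.0414) and rho = 0.648 (adjusted permutation p = 0.188). With the group means removed that r was 0.937. It fell to 0.358 without PBS replicates 2 and 3, on which it therefore rests.

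Gsdmd showed no relation to the cluster over all 10 libraries, with r between -0.0389 and 0.022 against the 4 Gsdmc genes. Without PBS replicates 2 and 4, the farthest for Gsdmd, r lay between 0.271 and 0.632, so the near absence of a relation rests on those libraries. Gsdma and Gsdmd had r = 0.781 (permutation p = 0.00921, adjusted 0.0488) and rho = 0.770 (permutation p = 0.0122, adjusted 0.108), and r = 0.809 without PBS replicates 2 and 4.

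The cluster sum followed the epithelial list, with r = 0.781 (permutation p = 0.00404, adjusted 0.0357) and rho = 0.661 (permutation p = 0.0425, adjusted 0.188). Without the farthest libraries, PBS replicate 3 and 4-HDHA replicate 3, r was 0.806, and with the group means removed it was 0.796. PBS replicate 3, the lowest library for the cluster, was also the lowest for the epithelial list, at a mean of 8.80 log2 CPM. 4-HDHA replicate 3 was nearly as low on the epithelial list, at 8.83, and had a cluster sum of 618 FPKM against 170 FPKM in PBS replicate 3. With that list as a covariate the fold change of the cluster sum was 0.27 in place of -0.30, and that of Gsdmc4 was 0.07 in place of -0.52, none of them past the threshold.

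Gsdmd followed the macrophage and monocyte list (Cd68, Adgre1, Csf1r and others), with r = 0.734 (permutation p = 0.00631, adjusted 0.0414) and rho = 0.661 (permutation p = 0.0440, adjusted 0.188), and r = 0.742 without 4-HDHA replicate 4 and PBS replicate 4. These 13 genes summed to 845 to 2008 CPM with 4-HDHA and 622 to 1275 CPM with PBS, and the fold change was above 0 for 11 of 13. With the epithelial list Gsdmd had r = 0.186 (permutation p = 0.594, adjusted 0.749). With the surface colonocyte list it had r = 0.653 (permutation p = 0.0453, adjusted 0.157) and rho = 0.673 (adjusted permutation p = 0.188). With the list of crypt stem and cycling cells it had r = -0.763 (permutation p = 0.0111, adjusted 0.0536) and rho = -0.588 (adjusted permutation p = 0.245), and r = -0.850 without 4-HDHA replicate 3 and PBS replicate 3.

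Gsdme ran against the smooth muscle list, with r = -0.775 (permutation p = 0.00342, adjusted 0.0357) and rho = -0.709 (permutation p = 0.0271, adjusted 0.188). The value was -0.711 without PBS replicate 3 and 4-HDHA replicate 5, and -0.695 with the group means removed. Gsdma, which is known from stratified epithelium, had r = 0.701 with the squamous epithelium list (Krt5, Krt14, Krt13, Trp63 and others; permutation p = 0.0130, adjusted 0.0576) and rho = 0.806 (permutation p = 0.00682, adjusted 0.0723). Without PBS replicate 3 and 4-HDHA replicate 5 that r was 0.832. The squamous list summed to 138 to 363 CPM with 4-HDHA and 44.1 to 247 CPM with PBS. With it as a covariate the Gsdma estimate was -0.23 in place of 0.10, neither past the threshold.

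**Figure D4:**
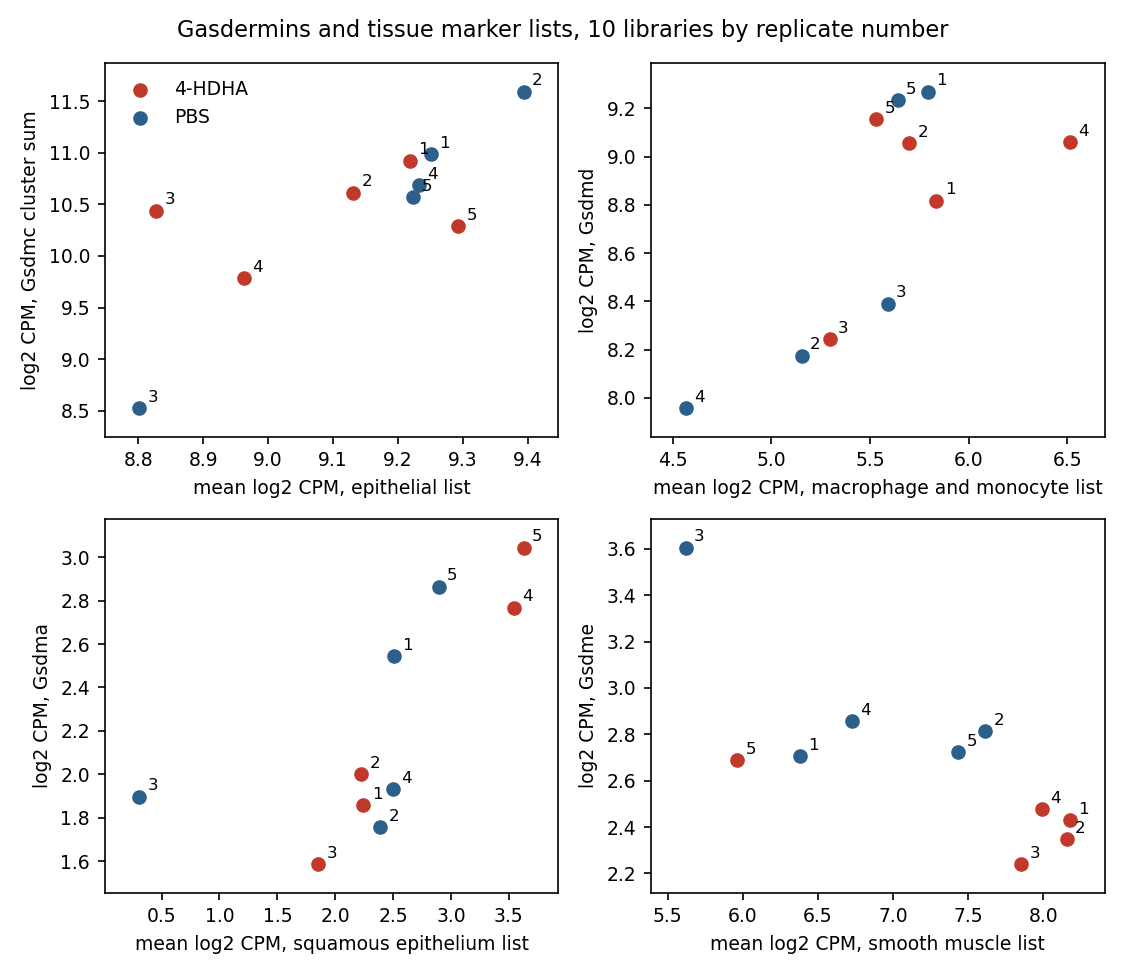
Log2 CPM of a gasdermin against the mean log2 CPM of a marker list in the 10 libraries, 4-HDHA in red and PBS in blue, numbered by replicate. The panels show the Gsdmc cluster sum with the epithelial list (r = 0.781), Gsdmd with the macrophage and monocyte list (r = 0.734), Gsdma with the squamous epithelium list (r = 0.701) and Gsdme with the smooth muscle list (r = -0.775).

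The genes whose pattern over the 10 libraries was most like that of a member, after group means were removed, were ranked by Pearson r among 15483 genes, as a description with no test. For the Gsdmc cluster they were Acp5 (r = 0.978), Gsdmcl2 (0.977), Ctse (0.972) and Gfi1 (0.968). For Gsdmd they were Bcl6 (0.986), Lgals8 (0.980), Ksr1 (0.979) and Dnajc5 (0.975). Gsdme was nearest to Aebp2 (0.950), Tdrd1 (0.947), Smndc1 (0.947) and Aars (0.941), and Gsdma to Itgb6 (0.959), Arhgef3 (0.954), Dusp5 (0.943) and Pkd2l2 (0.940). Gsdmcl2 itself had 18.8 to 43.4 FPKM with 4-HDHA and 5.99 to 74.9 FPKM with PBS, with a log2 fold change of -0.29 (SE 0.52, edgeR adjusted p = 0.801).

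The genes that act with the gasdermins did not pass the test in either direction, in edgeR or in DESeq2, and Fadd and Pdcd6ip alone among those tested had an unadjusted edgeR p under 0.05, a smaller share than the 14.8% of all genes tested. Of 11 proteases listed as cutting gasdermins, 8 could be tested, and 0 rose and 0 fell, with 5 fold changes above 0 and a median log2 fold change of 0.11. Casp4, whose protein senses bacterial lipopolysaccharide in the cytosol and cuts gasdermin D, had 80.5 ± 14.2 CPM with 4-HDHA and 60.2 ± 18.4 CPM with PBS (log2 fold change 0.42, SE 0.21, edgeR adjusted p = 0.358). Casp1, the inflammasome caspase, had 169 ± 15.7 CPM with 4-HDHA and 156 ± 34.4 CPM with PBS (0.12, SE 0.16, adjusted p = 0.732).

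Casp8, whose protein is known to cut human gasdermin C and mouse gasdermin D, had 162 ± 39.5 CPM with 4-HDHA and 181 ± 38.2 CPM with PBS (log2 fold change -0.16, SE 0.20, edgeR adjusted p = 0.702). Gzma, a granule protease of cytotoxic lymphocytes, had 3.87 ± 2.02 CPM with 4-HDHA and 4.29 ± 2.41 CPM with PBS (-0.15, SE 0.47, adjusted p = 0.895). Gzmb, which encodes granzyme B, known to cut gasdermin E, had 3.44 ± 1.17 CPM with 4-HDHA and 3.00 ± 1.76 CPM with PBS (0.20, SE 0.42, adjusted p = 0.836). The neutrophil protease genes Elane and Ctsg were too low to test.

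Of the sensors and adaptors upstream, 17 of 17 were tested, and 0 rose and 0 fell, with 12 fold changes below 0 and a median log2 fold change of -0.21. Fadd, the adaptor that brings caspase-8 to death receptors, had 14.3 ± 2.58 CPM with 4-HDHA and 19.9 ± 3.93 CPM with PBS (log2 fold change -0.48, SE 0.17, unadjusted p = 0.0195, edgeR adjusted p = 0.305). Ripk3, the kinase of necroptosis, had 84.3 ± 40.4 CPM with 4-HDHA and 128 ± 52.7 CPM with PBS (-0.60, SE 0.36, adjusted p = 0.427). Pycard, the inflammasome adaptor ASC, had 67.3 ± 13.9 CPM with 4-HDHA and 82.7 ± 25.7 CPM with PBS (-0.30, SE 0.22, adjusted p = 0.503).

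Nlrp6, an inflammasome sensor of the intestinal epithelium, had 381 ± 79.3 CPM with 4-HDHA and 295 ± 102 CPM with PBS (log2 fold change 0.37, SE 0.28, edgeR adjusted p = 0.519). Nlrp3, a sensor of myeloid cells, had 4.80 ± 6.03 CPM with 4-HDHA and 8.26 ± 7.06 CPM with PBS (-0.78, SE 0.80, adjusted p = 0.635), an SD about as large as its mean. The Nlrp3 estimate was -1.94 without 4-HDHA replicate 5 and -0.16 without PBS replicate 3.

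Of 13 cargo and downstream genes, 13 were tested, and 0 rose and 0 fell, with 10 fold changes below 0 and a median log2 fold change of -0.09. Il18, the epithelial cytokine that leaves through gasdermin pores, had 155 ± 45.1 CPM with 4-HDHA and 172 ± 47.3 CPM with PBS (log2 fold change -0.15, SE 0.25, edgeR adjusted p = 0.786). Il1b had 56.3 ± 90.9 CPM with 4-HDHA and 88.0 ± 96.5 CPM with PBS (-0.64, SE 1.14, adjusted p = 0.798). Ninj1, which ruptures the membrane after pore formation, had 21.3 ± 7.23 CPM with 4-HDHA and 15.4 ± 3.28 CPM with PBS (0.47, SE 0.23, adjusted p = 0.348). Pdcd6ip, which encodes the ESCRT-associated protein ALIX of membrane repair, had 274 ± 35.0 CPM with 4-HDHA and 334 ± 31.1 CPM with PBS (-0.29, SE 0.12, unadjusted p = 0.0342, adjusted p = 0.317).

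Of 15 regulators, 15 were tested, and 0 rose and 0 fell, with 8 fold changes above 0 and a median log2 fold change of 0.10. Irf2, a transcription factor of Gsdmd, had 102 ± 11.7 CPM with 4-HDHA and 82.5 ± 17.9 CPM with PBS (log2 fold change 0.31, SE 0.15, edgeR adjusted p = 0.358). Zdhhc7, a palmitoyltransferase of gasdermin D, had 56.5 ± 8.22 CPM with 4-HDHA and 67.7 ± 7.60 CPM with PBS (-0.26, SE 0.12, adjusted p = 0.344). All these values are transcript levels. Cleavage of gasdermins, by which they are activated, was not measured.

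**Figure D5:**
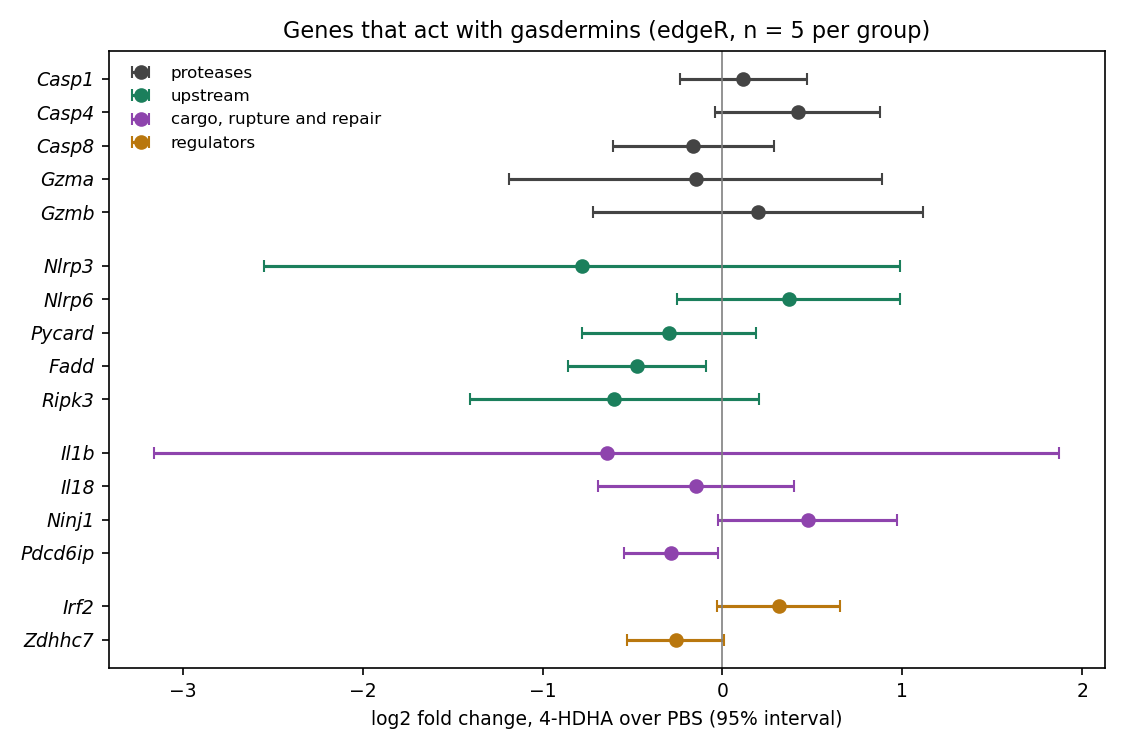
Log2 fold change, 4-HDHA over PBS, with its 95% interval from edgeR (n = 5 per group) for genes that cut gasdermins, act upstream of them, leave through or repair their pores, or regulate them. Fadd (-0.48) and Pdcd6ip (-0.29) are the genes shown whose interval lies wholly on 1 side of 0, and neither passed the adjusted threshold.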

How the data were processed

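Poly(A) RNA of 10 colon libraries was sequenced in paired ends of 150 bases after strand-marking (dUTP) library preparation, per the labels' protocols. Tools listed per the submitters' processing notes, without roles or parameters, include HISAT2 2.0.4, cutadapt 1.9 and StringTie 1.3.4d, with mm10 as the genome build. The authors deposited a whole-number read count and an FPKM value per gene and library. The members and gene lists were chosen with earlier results of these data known.

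Deposited counts were tested on all genes with edgeR 4.0.16 (filterByExpr, TMM factors, robust quasi-likelihood F test, Benjamini-Hochberg adjustment over 19615 genes, threshold 0.05, 4-HDHA over PBS, no covariate). The cluster sum replaced its 4 genes by their added counts. CPM use TMM library sizes. Correlations use log2 CPM with a prior count of 2. DESeq2 1.42.0 and limma 3.58.1 (voom, and limma-trend on log2 FPKM) were alternatives. Shares of the cluster were compared by exact permutation, with Benjamini-Hochberg adjustment over the 4 shares. On simulated data with known changes the edgeR step was tested beforehand, and how many changes it recovered is not reported here. Genes given with values were all members, Gsdmcl2, Gsdma3, Mpp6, fixed pathway genes whatever their values, and the 4 genes of most alike pattern. Further pathway genes were among those with the smallest p values of their list. Marker genes in brackets only show what a list holds. Gsdma2, Pjvk and Gsdmcl1 were not analysed here. The values of 1 fixed pathway gene are not reported here. Sequences come from GENCODE M21 (GRCm38), whose gene positions equal the deposited ones for all 7 members. Depth was 50915365 to 66470519 counts, and counts of 145 or more lie behind each member's value in every library.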

Additional observations from a re-analysis of the deposited data

Results flagged for a closer look

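Among 24 sets of 5 libraries checked for a value standing apart (Dixon's criterion, which chance alone meets in about 1 in 20 such sets), 1 was found. Gsdme in PBS replicate 3 had 12.1 CPM, far above the other PBS libraries, which lay between 6.49 and 7.21 CPM. The same library had the lowest level of all 4 Gsdmc genes of any library and the lowest mean of the epithelial and smooth muscle lists. It also had the lowest mean of the squamous list (0.31 log2 CPM). Its means were the highest for the crypt stem and cycling list (5.27) and for a neutrophil list (S100a8, S100a9 and others, 5.08). The part of these differences in the Gsdme value was not tested.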

How the results depend on the processing

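Besides the 10 fits that each leave out 1 library, 14 alternatives were run for each member, and the number of members past the adjusted threshold was 0 in every one. The sign of Gsdmc, Gsdmd and Gsdme was the same in all of them, though for Gsdmc only at -0.012 (SE 0.31) with the epithelial list as covariate. Gsdma turned to -0.23 under limma voom and to -0.23 with the squamous list as covariate. Gsdmc2 turned to 0.032 under voom, 0.071 and 0.073 under the FPKM fits (pseudocounts 1 and 0.1), 0.080 as a difference of mean log2 CPM and 0.39 with the epithelial list as covariate, which also gave 0.074 for Gsdmc4, 0.27 for the cluster sum, 0.48 for Gsdmcl2 and 0.053 for Il18. The smooth muscle covariate gave -0.14 for Gsdmc3, 0.26 for Gzma, 0.21 for Nlrp3 and 0.57 for Il1b, and the squamous covariate 0.035 for Gzma. Gsdmcl2 was 0.0052 and 0.024 under the FPKM fits and 0.032 as a difference of mean log2 CPM. The cause was not tested. Leaving out 1 library gave log2 fold changes of -0.14 to 0.30 for Gsdma, -0.79 to -0.27 for Gsdmc, -0.36 to 0.24 for Gsdmc2, -0.030 to 0.60 for Gsdmc3, -0.78 to -0.22 for Gsdmc4, 0.05 to 0.37 for Gsdmd, -0.61 to -0.33 for Gsdme and -0.56 to 0.015 for the cluster sum, and among the other genes named -0.57 to 0.22 for Gsdmcl2, -0.0092 to 0.19 for Casp1, -0.44 to 0.13 for Gzma, -0.0055 to 0.56 for Gzmb, -1.94 to -0.16 for Nlrp3 and -2.43 to 0.27 for Il1b. It gave differences in share of -0.0968 to -0.0647 points for Gsdmc, 1.70 to 3.59 for Gsdmc2, 4.27 to 6.82 for Gsdmc3 and -10.0 (-10.04) to -5.90 for Gsdmc4, with unadjusted exact permutation p-values up to 0.0397 for Gsdmc, 0.302 for Gsdmc2, 0.0556 for Gsdmc3 and 0.0635 for Gsdmc4. With PBS replicate 3 and 4-HDHA replicate 5 both left out, a choice made after seeing the data, Gsdma was -0.22 and Casp1 -0.020, and the shares differed by -0.0761 points for Gsdmc, 3.77 for Gsdmc2, 5.93 for Gsdmc3 and -9.63 for Gsdmc4, each with an exact permutation p of 0.0571. Members with an unadjusted p under 0.05 numbered 1 over all libraries, 0 under the FPKM fits, the smooth muscle and squamous covariates and without 4-HDHA replicate 2 or 3, 2 without PBS replicate 3 (where 2207 of 19919 genes tested had one) and 3 without both named libraries (3181 of 19645). DESeq2 called 312 genes in all where edgeR called 0. Replicate numbers did not pair the libraries (correlations of same-numbered libraries -0.316 to 0.0836, best match its own number in 1 of 5), and with a replicate block 0 members passed, 0 had an unadjusted p under 0.05 and Gsdmc2 turned to 0.040.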
